A study of Mus musculus with 6 samples.

Results

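The loci described here carry the tag TEC in the GENCODE mouse annotation, which marks an unspliced or little-known transcript still awaiting experimental proof. Members were chosen by their total reads: all TEC loci with 15 or more reads summed over the 6 libraries of the series, the gene type being taken from the same Ensembl identifier in the annotation. Of 2415 TEC loci among 47729 counted genes, 464 met this floor, 1452 had 1 to 14 reads and 499 had none. At the floor itself, 14 members had exactly 15 reads, and 30 TEC loci missed it with 14. Because the floor was set on reads, total reads are a description here, and the division of those reads among the groups is what was examined.

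RNA was sequenced in bulk from cells enriched with beads for CD144 (VE-cadherin, a junction protein of endothelial cells, ECs) out of the gastrocnemius muscle of mice after hind limb ischemia (HLI). All mice ate a high-fat, high-sucrose (HFHS) diet, had surgery on day 0, received adenovirus in the muscle and gave tissue after 1 week. By the labels the virus was given on days 1 and 4, whereas the study's methods place the second dose later. WT + GFP mice received Ad-GFP, a virus for green fluorescent protein. KO + GFP mice received the same virus and lacked the mouse region syntenic to human LEENE, a long noncoding RNA of ECs. KO + LEENE mice carried that deletion and received Ad-LEENE, a virus for human LEENE tagged with GFP. The deletion was made with CRISPR/Cas9 and its founders were crossed to C57BL/6J. Both sexes served in the study and the labels give no age or sex for a library. Each group had 2 libraries, and the file headers carry 1 shared code for both libraries of a group, 3 codes in all. Whether a code marks 1 RNA sample is not known. The p-values thus compare libraries, and the spread between them may be technical.

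A TEC locus usually rests on complementary DNA clones or expressed sequence tags that align to the genome as 1 block, with no intron to prove splicing. Such blocks often lie in the introns of larger genes, and their products have no known protein. The libraries were built with a 3′ gene expression kit, whose reverse transcription starts from an oligo(dT) primer that binds stretches of A, normally the poly(A) tail. Reads were counted without regard to strand, so a stretch of T in a locus stands for a stretch of A on the opposite strand.

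The libraries held 1770992 to 5602603 counted reads, the KO + LEENE pair being the smallest. Mitochondrially encoded genes took 50.1% and 50.9% of reads in WT + GFP and 33.6% to 34.3% in the other 4 libraries. CPM below means reads per 1000000 of the library total scaled by TMM, a correction for composition whose factors were 0.955 to 0.959 (WT + GFP), 0.66 to 0.713 (KO + GFP) and 1.52 (KO + LEENE). The EC label was checked against 8 endothelial markers, whose summed level was 303 to 320 CPM (WT + GFP), 3600 to 3606 CPM (KO + GFP) and 68.1 to 76.3 CPM (KO + LEENE). Cdh5, which encodes CD144, had 332 and 283 reads (WT + GFP), 322 and 196 (KO + GFP) and 5 and 18 (KO + LEENE). The far higher sum in KO + GFP than in WT + GFP thus came from others among the 8 markers. Summed levels of 5 fibroblast markers were 60.5 to 64.6, 17515 to 18970 and 45.1 to 47.6 CPM in the same order, and those of 6 macrophage markers were 14.5 to 21.0, 658 to 762 and 4.09 to 4.77 CPM. Those of 4 mural cell markers were 2.54 to 3.22, 2.32 to 6.21 and 21.6 to 26.8 CPM, and those of 5 skeletal muscle markers 1.77 to 1.84, 26.7 to 30.5 and 16.5 to 21.2 CPM. At 3 or fewer reads in a group were 1, 1 and 0 of the endothelial markers, 1, 1 and 1 of the fibroblast markers, 3, 2 and 3 of the macrophage markers, 0, 3 and 1 of the mural markers and 3, 2 and 3 of the skeletal muscle markers. In bulk samples, fewer cells of a type and less RNA per cell cannot be told apart, and the part of cell makeup in the results on TEC loci was not tested. The deleted region itself was not analysed here.

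Members were also described by their longest run of A or T. The 13 stretches here were picked for a long run or for confinement of reads to 1 group, so they illustrate such runs and test nothing. They come from GENCODE vM39 transcripts of GRCm39, each with the same identifier and length as the locus counted on GRCm38. A sequence of equal length was at hand for 456 of the 464 members. Each stretch is the longest run of A or T in the locus, in capitals, with up to 25 bases on either side, written 5′ to 3′ on the annotated strand. The first 7 are from among the most-read members with a run of 15 bases or more, which were spread over the groups, with leading shares of 36.4% to 54.3%.
Gm42992, chr5:131986549-131993384, minus strand: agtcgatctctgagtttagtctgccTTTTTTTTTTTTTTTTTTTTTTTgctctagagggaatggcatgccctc
Gm42535, chr5:48324612-48326010, plus strand: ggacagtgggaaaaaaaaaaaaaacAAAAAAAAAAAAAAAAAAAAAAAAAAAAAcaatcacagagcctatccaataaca
Gm42856, chr6:24657518-24660369, minus strand: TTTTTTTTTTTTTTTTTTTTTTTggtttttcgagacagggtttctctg
D630023O14Rik, chr1:164575455-164578553, plus strand: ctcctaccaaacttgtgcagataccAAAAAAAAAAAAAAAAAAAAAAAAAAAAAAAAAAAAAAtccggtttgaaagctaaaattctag
4833421G17Rik, chr1:87865073-87865916, plus strand: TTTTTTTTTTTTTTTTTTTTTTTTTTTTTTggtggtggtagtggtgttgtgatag
Gm43027, chr5:67980671-67984361, plus strand: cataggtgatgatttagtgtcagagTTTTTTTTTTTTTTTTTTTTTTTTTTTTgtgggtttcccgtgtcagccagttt
Gm42636, chr5:145292770-145295008, plus strand: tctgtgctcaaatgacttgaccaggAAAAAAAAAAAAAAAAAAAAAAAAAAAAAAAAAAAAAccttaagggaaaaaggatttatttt

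The other 6 are from the most-read members with at least 90% of their scaled reads in 1 group. None of these held an A or T run longer than 12 bases.
Gm19514, chr7:134095790-134100278, minus strand: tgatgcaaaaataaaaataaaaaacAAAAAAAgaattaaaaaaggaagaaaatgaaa
Gm37452, chr7:36710174-36711333, plus strand: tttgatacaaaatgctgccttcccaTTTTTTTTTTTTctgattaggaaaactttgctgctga
Gm37183, chr14:64835855-64839259, minus strand: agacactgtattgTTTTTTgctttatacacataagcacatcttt
Gm42600, chr6:85679277-85682864, plus strand: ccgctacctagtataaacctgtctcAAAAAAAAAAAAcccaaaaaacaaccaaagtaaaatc
2900035J10Rik, chr1:194732707-194733238, plus strand: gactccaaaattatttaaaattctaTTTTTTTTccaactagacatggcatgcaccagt
Gm37809, chr1:160913472-160914402, plus strand: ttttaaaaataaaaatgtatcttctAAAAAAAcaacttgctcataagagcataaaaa

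In their form the members were alike. After overlapping exons were merged, 463 of the 464 were a single block and 1 had 2 blocks. Their lengths ran from 295 to 74456 bases with a median of 2650 bases, against 1922 bases for all TEC loci. Chromosomes 1, 3, 5, 6 and 7 held 395 members (85.1%) and 1874 of all TEC loci (77.6%), so members kept the uneven layout of the tag over the genome. A hexamer AATAAA or ATTAAA, the usual signals for poly(A) addition, lay in the last 50 bases of 27.4% of members with a sequence, of 27.6% of TEC loci with no reads and of 68.2% of transcripts of protein-coding genes. A match says only that these letters were there.

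Members took 0.515% and 0.518% of reads in the WT + GFP libraries. Their share was smaller with KO + GFP, at 0.345% and 0.338%, and larger with KO + LEENE, at 0.864% and 0.860%. The 3 groups did not overlap, and the widest 95% Wilson interval of a library, which covers counting error only, was 0.851% to 0.878%. Scaled by TMM, the same reads came to 5394 ± 33.2 CPM (WT + GFP; SD, n = 2), 4976 ± 335 CPM (KO + GFP) and 5673 ± 28.1 CPM (KO + LEENE), so the spread of the raw shares shrank with the scaling. With reads from mitochondrially encoded genes left out, the shares were 1.04%, 0.52% and 1.30%. Gm42992 alone held 12.8% of all member reads and the 10 most-read members 33.3%, while the median member had 57.5 reads.

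Of the 92 members with 240 reads or more, 41 had under 50% of their scaled reads in the leading group, 19 had 90% or more there and 32 lay between. All but 1 of the 10 with the most reads were well read in all groups. Gm42992, in the span of Auts2, a neurodevelopmental gene, had 3326 and 3133 reads (WT + GFP), 2111 and 1369 (KO + GFP) and 1881 and 1841 (KO + LEENE). Its group means were 780 ± 20.9, 549 ± 28.6 and 687 ± 17.1 CPM (SD, n = 2), so WT + GFP, the highest, took 38.7% of the scaled reads. The log2 fold change from WT + GFP to KO + GFP was -0.51 ± 0.11 (SE, edgeR adjusted p = 6.1e-06), and that from KO + GFP to KO + LEENE 0.32 ± 0.11 (adjusted p = 0.0048). With library size alone in place of TMM these were -0.99 and 1.48, and the median over all 8903 genes tested moved from -0.09 to -0.57 and from -0.01 to 1.07, so that sizes here are relative to TMM scaling. For KO + LEENE against WT + GFP that median moved from -0.11 to 0.50, and under TMM Gm42992 did not pass the test there (adjusted p = 0.12).

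Gm42535, outside any protein-coding gene, had 867 and 841 reads (WT + GFP), 688 and 442 (KO + GFP) and 467 and 520 (KO + LEENE). WT + GFP led with 36.4%, close to an equal division among the groups. D630023O14Rik, also outside, had 723 and 722, 962 and 678, and 304 and 300 reads in that order. KO + GFP led it with 47.7%, and its log2 fold change from there to KO + LEENE was -1.22 ± 0.09 (SE, edgeR adjusted p = 2.7e-41). With library size alone that change was -0.07 (adjusted p = 0.41). Gm43027 and Gm42636, both outside, were led by WT + GFP with 48.1% and 54.3%. Gm42636 had 627 and 488 reads (WT + GFP), 226 and 135 (KO + GFP) and 149 and 154 (KO + LEENE). Its fall from WT + GFP to KO + GFP was -1.23 ± 0.11 on the log2 scale (edgeR adjusted p = 2.0e-29).

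Gm42856 lies in Wasl, which encodes an activator of actin branching. The locus had 839 and 806 reads (WT + GFP), 446 and 281 (KO + GFP) and 699 and 675 (KO + LEENE), whereas Wasl itself had 1902 and 1861, then 2 and 2, then 6 and 4. Thus the locus kept 20.2% of its scaled reads in KO + GFP, where its host was nearly at 0. From KO + GFP to KO + LEENE it was higher by a log2 fold change of 1.14 ± 0.09 (SE, edgeR adjusted p = 2.5e-37), which was 2.30 with library size alone. 4833421G17Rik, in the diacylglycerol kinase gene Dgkd, had 399 and 386, 262 and 174, and 465 and 436 reads, with Dgkd at 290 and 269, 5 and 0, and 4 and 5. KO + LEENE led the locus with 50.4%, and WT + GFP led the host. Gm37144, in Mrpl15 of the mitochondrial ribosome, had 459 and 410, 383 and 228, and 238 and 215 reads, with its host at 161 and 171, 14 and 4, and 7 and 19. All 3 loci were present in groups where the host was at 19 reads or fewer per library.

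Gm38319, in Lactb2, a gene for a metallo-beta-lactamase domain protein, was led by KO + LEENE with 45.7%. Gm45718, in the signal peptidase gene Sec11a, was the exception among the 10. Reads were 494 and 482 (WT + GFP) and 350 and 219 (KO + GFP), but 4 and 5 (KO + LEENE). That was a log2 fold change of -5.73 ± 0.26 from KO + GFP (SE, edgeR adjusted p = 1.7e-91), or -4.58 with library size alone. Its longest A or T run was 8 bases, the shortest among the 10. In the plot of levels by library, the other 9 loci are high in all 6 libraries, though not level between groups. D630023O14Rik, for example, had means of 261 CPM (KO + GFP) and 112 CPM (KO + LEENE).

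**Figure D1:**
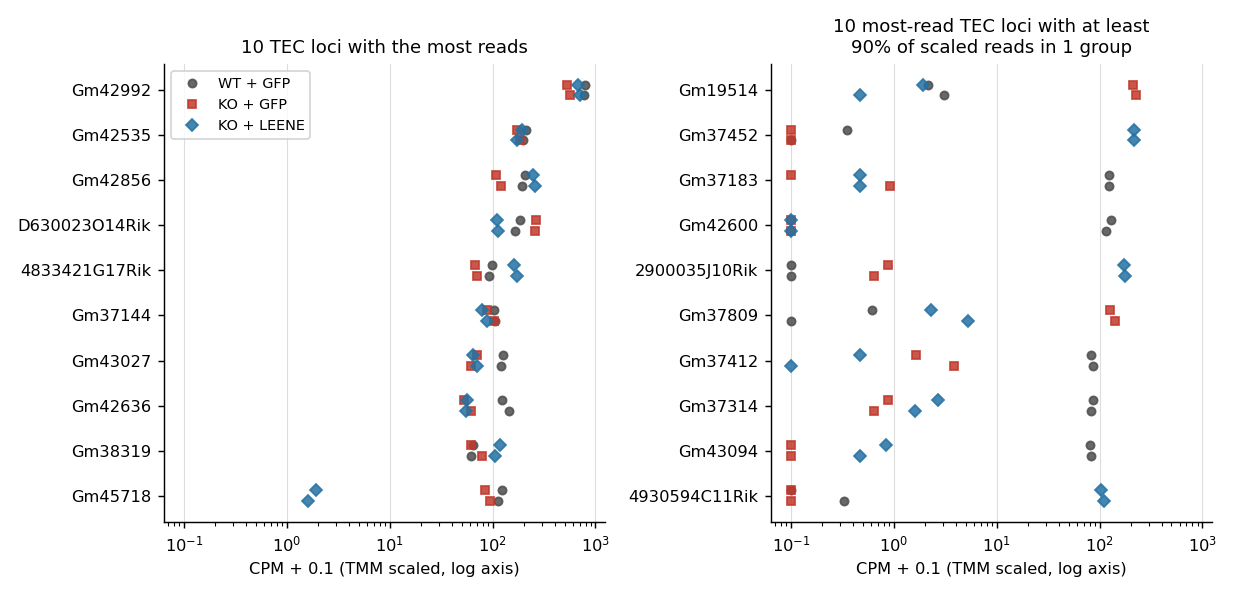
CPM plus 0.1 (TMM scaled, log axis) of TEC loci in each of the 6 libraries, 1 point per library, colored by group. On the left, 9 of the 10 most-read loci are high in all groups and Gm45718 drops in KO + LEENE; on the right, the 10 most-read loci with at least 90% of scaled reads in 1 group stand apart in that group's 2 libraries.

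The loci nearly confined to 1 group were divided among all 3 groups. Those named for this were picked from these same values, as among the 5 largest rises or falls of a comparison. They had few reads outside 1 group, so the p-values printed with them are no separate support. Highest in KO + GFP was Gm19514, in the metalloprotease gene Adam12, with 837 and 546 reads there, 13 and 8 under WT + GFP and 1 and 5 under KO + LEENE. The log2 fold change to KO + LEENE was -7.58 ± 0.23 (SE, edgeR adjusted p = 9.8e-171). It was -6.83 without the first KO + LEENE library, -9.02 without the second and -6.44 with library size alone, so its size rests on those few reads and on the scaling. Adam12 itself had 4 reads or fewer in every library. Gm37809, in Rc3h1, which encodes an RNA decay factor, had 525 and 330 reads (KO + GFP) beside 0 and 2 (WT + GFP) and 14 and 6 (KO + LEENE). With 2 reads over the WT + GFP pair, its ratio was 563 with a counting interval of 155 to 4660. 5730596B20Rik, opposite the homeobox gene Hoxa3, had 195 and 141 reads (KO + GFP) beside 1 and 0 (WT + GFP) and 2 and 1 (KO + LEENE). Hoxa3 was led by the same group, with 57 and 37 reads there and 1 to 5 elsewhere. Of 5730596B20Rik, 292 bases lie on annotated exons of another gene, where the counting left reads out, and counting without strand cannot tell its reads elsewhere from those of the opposite strand. 9430087B13Rik, in Tmem132c, had 128 and 72 reads in KO + GFP and none in the other 4 libraries, and C730045M19Rik, in the protease gene Sppl3, had 105 and 69 and none. The KO + GFP pair carried every read of both loci.

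In KO + LEENE, Gm37452, in the zinc finger gene Tshz3, had 581 and 590 reads, against 0 and 1 in WT + GFP and none in KO + GFP. Against a floor of 3 reads over the KO + GFP pair it was at least 454-fold higher. 2900035J10Rik, in Plxna2, a semaphorin receptor gene, had 953 reads over the KO + LEENE pair, a mean of 176 ± 3.02 CPM (SD, n = 2), with 2 and 2 reads (KO + GFP) and none (WT + GFP). From KO + GFP to KO + LEENE it was higher by a log2 fold change of 8.03 ± 0.25 (SE, edgeR adjusted p = 6.5e-156), or 9.16 with library size alone, and it was at least 486-fold higher than in WT + GFP. This locus too was picked for these changes, so the p-value is no separate support. Plxna2 was not confined in this way, with 72 and 57 (WT + GFP), 622 and 410 (KO + GFP) and 889 and 893 (KO + LEENE) reads. Another member in Plxna2, Gm38036, picked after its values were seen, had 54 and 50, 333 and 196, and 428 and 421 reads, and so followed the order of its host. 4930594C11Rik, in the glycosyltransferase gene Mgat4a, had 294 and 282 reads in KO + LEENE and 1 read in all elsewhere, but 1413 of its bases lie on annotated exons of another gene. Gm43313, in the phosphatase gene Ppp1cb, had 124 and 150 reads (KO + LEENE) beside 0 and 1 (WT + GFP) and 3 and 2 (KO + GFP).

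Highest in WT + GFP was Gm37183, in the homeobox gene Hmbox1, with 541 and 490 reads, beside 3 and 0 (KO + GFP) and 1 and 1 (KO + LEENE). It shares 160 bases with annotated exons of another gene. Gm42600, in the centrosome gene Alms1, had 500 and 511 reads in WT + GFP and none in the other 4 libraries. Set to 3 reads, the KO + GFP pair was at least 256-fold lower and the KO + LEENE pair at least 220-fold lower. A930036I15Rik, in the ankyrin gene Ank2, had 128 and 127 reads in WT + GFP and none elsewhere, while Ank2 had 133 and 94, 87 and 55, and 78 and 59. Outside protein-coding genes, Gm37412 had 377 and 327, 14 and 4, and 0 and 1 reads, and Gm43094 had 357 and 318, 0 and 0, and 1 and 2. Members with no read in either library of at least 1 group numbered 84, and 19 had reads in 1 group only. The count among other genes of like reads is not given, so these numbers are not read as a trait of TEC loci. Zero-read groups were most frequent in KO + LEENE (44 loci), the pair with the fewest reads, followed by KO + GFP (36) and WT + GFP (23).

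Over all members, 162 were led by WT + GFP, 143 by KO + GFP and 159 by KO + LEENE. These counts rest on TMM, since library size alone gave 145, 77 and 242. At least 90% of scaled reads fell in 1 group for 94 members (20.3%), 38 (WT + GFP), 26 (KO + GFP) and 30 (KO + LEENE). The leading group held under 50% for 149 members (32.1%). For protein-coding genes weighted to the members' classes of total reads, the figures were 20.2% and 25.1%, so the shares confined to 1 group lay close in the whole and the share spread evenly was higher among TEC loci, with no test made. With library size alone, 23.9% of members and 21.5% of the weighted genes were spread evenly.

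Confinement to 1 group was then counted by class of reads. From 15 to 59 reads, 36 of 236 members (15.3%) had 90% in 1 group, beside 403 of 3928 protein-coding genes (10.3%). From 60 to under 240 reads the counts were 39 of 136 (28.7%) and 542 of 2399 (22.6%). With 240 reads or more they were 19 of 92 (20.7%) and 1298 of 2947 (44.0%), and the evenly spread were 41 (44.6%) of the TEC loci and 467 (15.8%) of the genes. With library size alone these even shares were 27.2% and 13.1%. This class has no upper limit and was not matched on reads within it. From 240 to under 480 reads, 9 of 41 members (22.0%) and 299 of 773 genes (38.7%) were confined to 1 group. At 480 reads or more, 10 of 51 members (19.6%) and 999 of 2174 genes (46.0%) were. The median share of the leading group rose with reads from 57.9% to 86.8% for protein-coding genes. For TEC loci it was 65.7%, 65.4%, 63.9%, 71.2%, 54.4% and 50.4% in classes starting at 15, 30, 60, 120, 240 and 480 reads. In the class from 120 to under 240 reads, the protein-coding median was 72.5%. The lncRNA genes did not rise steadily with reads either, with medians of 61.2%, 76.1%, 73.3%, 62.9%, 73.2% and 57.0% in the same classes. At 240 reads or more, 32 of 108 lncRNA genes (29.6%) were confined to 1 group and 35 (32.4%) evenly spread. The pattern by reads is thus not called particular to TEC loci. These are descriptions of the loci, which are not replicates, and no test was made of the difference.

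**Figure D2:**
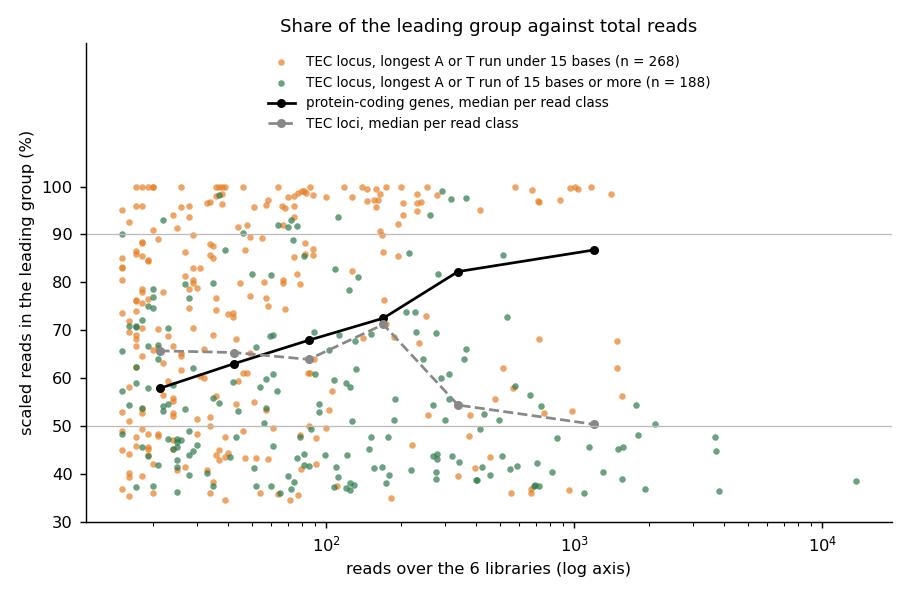
Share of scaled reads in the leading group (%) against reads over the 6 libraries (log axis), 1 point per TEC locus, colored by its longest A or T run; lines join medians per class of reads, and thin lines mark 50% and 90%. Protein-coding medians climb from 57.9% to 86.8%. The TEC median is 65.7% in the lowest class, 71.2% from 120 to under 240 reads and 50.4% in the class of 480 reads or more.

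Long A or T runs went with even spread. A run of 15 bases or more was present in 188 of the 456 members with a sequence (41.2%), and in 14.1% of all TEC loci. By total reads, the measure that chose the members, it was present in 0.825% of TEC loci without reads and 9.82% of those with 1 to 14 reads, and in 30.04%, 46.6% and 62.2% of those in the classes of 15 to 59, 60 to under 240 and 240 or more reads. Between 1000 and 2000 bases, 46.2% of members and 6.73% of the TEC loci under the floor had such a run, and between 3000 and 4000 bases 40.0% and 15.9% did, values that describe what the floor selected. GC content was nearly level, with medians of 40.7% in members and 42.0% in all TEC loci.

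Of the 188 members with such a run, 13 (6.91%) had 90% of their scaled reads in 1 group and 88 (46.8%) were spread evenly. Of the 268 with shorter runs, 79 (29.5%) and 60 (22.4%) did. The contrast stood in each class of reads, with 4 of 70 against 31 of 163 from 15 to 59 reads, 5 of 62 against 34 of 71 from 60 to under 240 reads, and 4 of 56 against 14 of 34 at 240 reads or more. None of the 26 members with a run of 30 bases or more had 90% in 1 group, whereas 58 of the 165 members with runs under 10 bases did. The base made little difference, since 5 of 87 members with a long A run (5.75%) and 7.92% of those with a long T run alone were confined to 1 group. Among members without reads in some group, 8 had a long run and 74 did not.

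Other gene types showed the same order. For protein-coding genes with 15 or more reads, 17.9% of those with a long run in any transcript and 27.3% of the rest had 90% in 1 group. The corresponding values were 11.6% and 35.1% for lncRNA genes and 12.7% and 36.7% for processed pseudogenes. The cutoff of 15 bases was chosen after the data were seen, and whether priming at such runs gave rise to the reads was not tested.

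**Figure D3:**
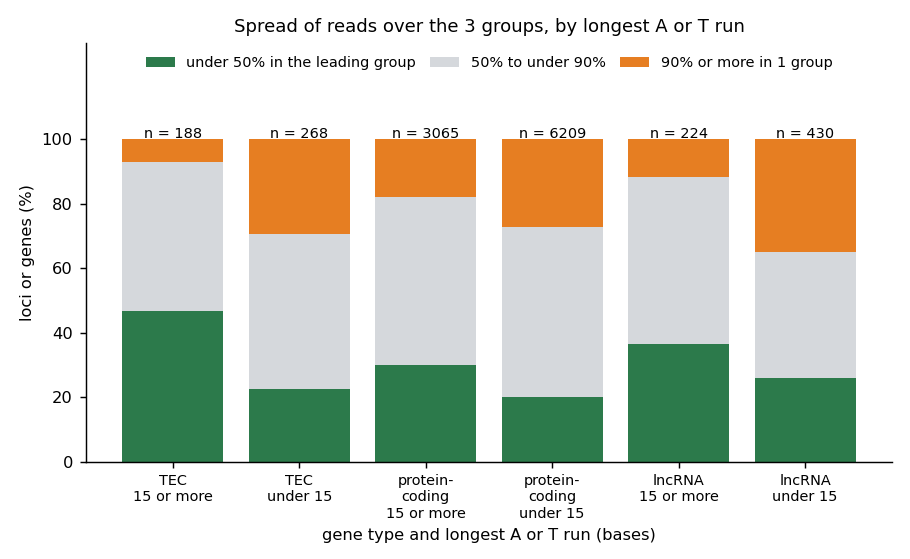
Percent of loci or genes with 15 or more reads whose leading group held under 50%, 50% to under 90%, or 90% or more of scaled reads, by gene type and longest A or T run; n stands above each bar. In all 3 types the orange part (90% or more in 1 group) is smaller where the run is 15 bases or longer, 6.91% against 29.5% for TEC loci.

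By position, 316 members (68.1%) lay wholly inside the span of a protein-coding gene, as did 58.0% of all TEC loci. On the gene's strand were 276, on the other strand 38, and 2 lay in genes of both strands, which left 148 outside. Of these, 14 overlapped a protein-coding span in part and are counted as outside throughout. Annotated exonic bases of another gene were shared by 60 members, 12 on the same and 48 on the other strand. The other 257 members in a same-strand host had no base on another gene's exons and lay in introns of the host. Of the 148 outside, 13 began within 5000 bases after the end of a protein-coding gene on their strand.

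Spread over the groups was also counted by position, with no test. At least 90% in 1 group was found for 54 of 276 same-strand members (19.6%), 8 of 38 on the other strand (21.1%) and 32 of 148 outside (21.6%). Even spread was seen in 31.9%, 31.6% and 33.1%. WT + GFP, KO + GFP and KO + LEENE held 27, 13 and 14 of the confined loci on the same strand, 2, 4 and 2 on the other strand and 9, 9 and 14 outside. At 240 reads or more they led 21, 12 and 26 members on the same strand, 1, 7 and 0 on the other and 10, 6 and 9 outside. With a long run, confinement to 1 group was 11 of 116, 0 of 13 and 2 of 58, and with shorter runs 43 of 159, 7 of 23 and 29 of 85, so the difference by run was present in each position class. The most-read locus on the other strand, Gm43670 opposite the potassium channel partner gene Kcnip4, had 210 and 153 reads (WT + GFP), 605 and 361 (KO + GFP) and 76 and 79 (KO + LEENE). It held no A or T run longer than 6 bases and was led by KO + GFP with 67.7%. Gm43952, opposite Mansc1, was even, with 156 and 125, 131 and 98, and 79 and 78 reads, and did not pass the test in any comparison (edgeR adjusted p = 0.56, 0.084 and 0.23). Gm37848, opposite the neuronal gene Astn1, had a run of 38 A and was led by WT + GFP with 58.3%. The 2 members in genes of both strands, Gm43413 and Gm44321, had 52 and 23 reads and were led by KO + GFP with 66.5% and by KO + LEENE with 68.9%.

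Leading groups were set side by side for members and their host genes. Of the 278 members with a same-strand host, 231 had a host with 15 or more reads, and 85 of these (36.8%) shared the leading group with it. Of these 231 pairs, WT + GFP, KO + GFP and KO + LEENE led 88, 63 and 80 of the members and 107, 67 and 57 of the hosts, a host being counted once for each member. With library size alone the counts were 75, 31 and 125 of the members and 93, 45 and 93 of the hosts, and 94 pairs shared the leading group. With a host on the other strand, the count was 10 of 25. Among members confined to 1 group, 20 of 44 shared it, and among those spread evenly 26 of 74. The host had a median of 28.5% of its scaled reads in the group that led its member, and in 14 pairs, of 12 distinct hosts, it had 90% or more there, while in 48 pairs, of 41 hosts, it had under 10%. By run length, the leading group was shared by 37 of 98 members with a long run and 48 with a shorter one (36.4%). No test was made of these counts.

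**Figure D4:**
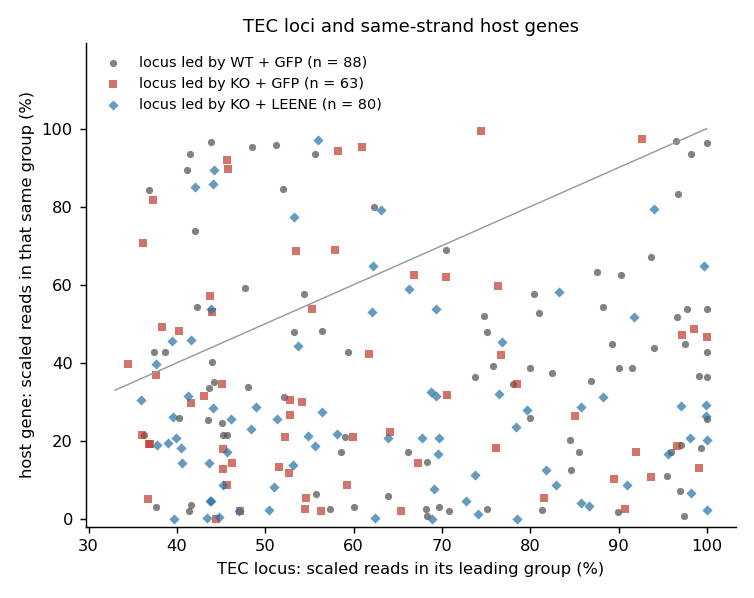
Share of scaled reads (%) of 231 same-strand TEC loci in their leading group (x axis) against the share of the host gene's scaled reads in that same group (y axis), 1 point per locus, colored by the leading group; the line marks equal shares. Points scatter widely around the line, and the median on the y axis is 28.5%.

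Several hosts held more than 1 member. Same-strand hosts with 2 or more members numbered 37, with 100 members in all, and in 10 of the hosts every member was led by the same group, a count that was not tested. Maml3, which encodes a Notch coactivator, held 7 members, 3 led by WT + GFP, 3 by KO + GFP and 1 by KO + LEENE. Maml3 itself had 720 and 642 reads in WT + GFP and 8 to 22 in the other libraries. The members of these hosts that follow were picked after their values were seen. 5430420F09Rik followed the host, with 46 and 41 reads in WT + GFP and 1 read in all elsewhere. Gm37675, which has a run of 26 T, had 105 and 105, 82 and 62, and 32 and 37 reads, and so was present where the host was low.

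Dlg2, a gene for a synaptic scaffold protein, had 19 reads in all, and its 7 members had 1399. Gm44676, with a run of 28 T, had 81 and 92, 73 and 59, and 72 and 80 reads for the groups as ordered above. Its neighbor Gm44680 in the same gene had 185 and 175 reads in WT + GFP and 0 to 3 in each other library, with a T run of 16 bases. Kcnip4 had 6 reads in all and its 7 same-strand members 1280. Gm43319 had 208 and 130 reads in KO + GFP, 84 and 91 in KO + LEENE and 1 in WT + GFP, whereas Gm43048 had 99 and 84, 71 and 40, and 88 and 77. Within 1 host, then, members with even reads lay beside members nearly absent from a group.

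The comparisons between groups were tested with edgeR over all genes, of which 8903 passed its filter on low counts. Among members, 328 of 464 passed, and since a locus could pass through the group where it was high, the counts below do not stand for all members. Every comparison shares libraries with the other 2. Between KO + GFP and WT + GFP, 177 of the 328 were called at an adjusted p under 0.05, 80 higher and 97 lower in KO + GFP, which is 54.0% against 70.1% of all genes tested. Between KO + LEENE and KO + GFP, 185 were called, 109 higher and 76 lower in KO + LEENE, or 56.4% against 67.8%. Between KO + LEENE and WT + GFP, 223 were called, 120 higher and 103 lower, or 68.0% against 70.7%. Shares called were also set out by class of reads. At 240 reads or more, 63, 54 and 69 of 92 members and 84.2%, 81.4% and 81.3% of protein-coding genes were called in the 3 comparisons. From 60 to under 240 reads, all 136 members were tested. Called were 56.6%, 51.5% and 65.4% of members and 67.8%, 62.2% and 66.0% of genes. From 15 to 59 reads, a locus could pass the filter through the group where it was high, so this class is not set against the others. There the filter left 100 of 236 members and 1578 of 3928 genes. The values were 37.0%, 61.0% and 65.0% for members and 50.3%, 54.0% and 59.8% for genes. In the same order, 34.2%, 32.8% and 33.9% of all genes were called higher and 35.9%, 34.9% and 36.9% lower.

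Directions depended on the scaling. With library size alone in place of TMM, the median log2 fold change over all genes moved from -0.09 to -0.57, from -0.01 to 1.07 and from -0.11 to 0.50 in the 3 comparisons. Calls among members then became 65 higher and 135 lower, 194 higher and 44 lower, and 161 higher and 75 lower. The shares of all genes called with library size alone are not given here. These counts thus describe a shift with the scaling and do not set members against other genes. Directions of small changes are therefore relative to the TMM scaling.

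Changes were smaller at the median for well-read TEC loci than for well-read genes, with wide overlap and no test of the difference. At 240 reads or more, where all 92 members and 2947 protein-coding genes were tested, the median size of the log2 fold change was 1.08 for members and 2.97 for genes between KO + GFP and WT + GFP. It was 0.73 and 2.89 between KO + LEENE and KO + GFP, and 0.86 and 2.59 between KO + LEENE and WT + GFP. Changes under 2-fold made up 48.9%, 59.8% and 53.3% of these members and 25.6%, 26.7% and 28.2% of the genes. This class has no upper limit, and 51 of the members and 2174 of the genes had 480 reads or more. Reads were thus not matched within it. From 60 to under 240 reads the medians were closer, at 1.53 and 1.85, 1.81 and 1.87, and 1.91 and 1.85. From 15 to 59 reads they were 1.87 and 1.69, 2.47 and 1.87, and 2.44 and 1.97, but there the filter kept a locus through the group where it was high, so this class was not plotted. At 60 reads or more, where every member was tested, the 118 with a long A or T run had medians of 0.70, 0.73 and 0.83 and the 105 with shorter runs 2.70, 1.99 and 2.99. Protein-coding genes with and without such runs had medians of 1.61 and 2.87, 1.63 and 2.88, and 1.55 and 2.61.

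**Figure D5:**
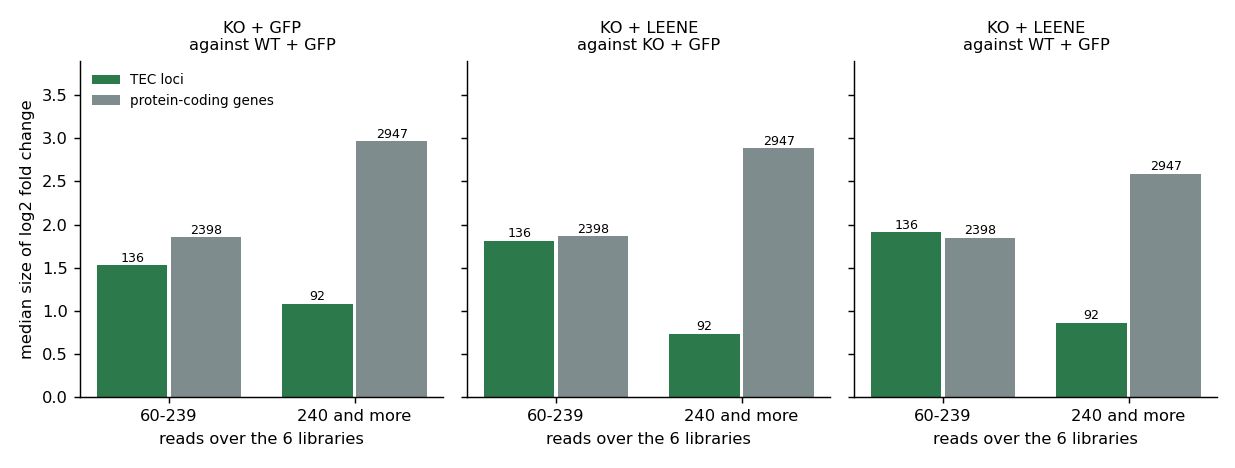
Median size of the log2 fold change (edgeR, TMM) of TEC loci and protein-coding genes in 2 classes of total reads, 1 panel per comparison; the number above a bar is the number of loci or genes tested. At 240 reads or more the TEC bars are at 0.73 to 1.08 and the protein-coding bars at 2.59 to 2.97. That class has no upper limit, so loci and genes in it are not matched on reads. From 60 to under 240 reads the bars are at 1.53 to 1.91 (TEC) and 1.85 to 1.87 (protein-coding).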

How the data were processed

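Counts were analysed from 6 bulk RNA-seq libraries of mouse CD144-enriched cells, grouped by the sample titles into WT + GFP, KO + GFP and KO + LEENE with 2 libraries each. Per the file headers, the authors deposited unnormalized read counts made with featureCounts 2.0.0 over exons of Ensembl 84 genes on GRCm38, from uniquely aligned reads, without strand, and leaving out reads on exons of more than 1 gene. The submitters' processing notes name STAR 2.5.4b, bcl2fastq 2.18 and mm10, the same assembly as GRCm38, while the study's methods name mm9. No collapsing of molecular identifiers is named, so intervals cover counting error only. Such counting cannot separate strands or near-identical copies.

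Gene types and transcript sequences came from GENCODE vM39 by identifier, with a type found for 43465 of 47729 genes. Since that release is on GRCm39, no base was read by coordinate, and positions are those of the files. The stretch of 1 well-read locus is not reported here. A locus was inside a gene when it lay wholly within its annotated span. Shares per group use TMM-scaled CPM means, and reads of 90% or more in 1 group and under 50% in the leading group were counted. Group differences were fitted in 1 model of all 6 libraries by edgeR 4.0.16 (quasi-likelihood, R 4.3.3), with TMM, filterByExpr defaults (count 10, total 15) and Benjamini-Hochberg adjustment over all genes tested. The SE is the log2 fold change over the square root of F. A group with no reads was set to 3 reads over the group for a bound, and ratios against 1 to 3 reads have exact 95% counting intervals. The scripts were tested on simulated counts. No permutation test was run, since 2 libraries against 2 allow no exact two-sided p below 0.333.

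The members, the read classes and the marker lists were chosen with earlier results of these data known. Named were the 10 members with the most reads, the 4 with the most in each position class and, per comparison, the 5 largest rises and falls among called members with a mean of at least 20 CPM in the higher group, with their hosts. Not all of these are described. Tried as alternatives were DESeq2 1.42.0, library size only, other size factors, other filters and thresholds, the 4 libraries compared alone, the replicate number as a block, leaving out each library, a floor of 30 reads, no shared exonic bases, other run lengths, and leading groups under other scalings, the last 2 kinds chosen after seeing the data.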

Additional observations from a re-analysis of the deposited data

How the results depend on the processing

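With at least 10 reads in every library, 45, 48 and 61 members were called between KO + GFP and WT + GFP, KO + LEENE and KO + GFP, and KO + LEENE and WT + GFP, since that filter left 92 members to test. DESeq2 called 141, 130 and 153. The shares of all genes called under these other settings are not given here, so such counts show only how the members' calls moved. Leaving out each library in turn gave 160 to 199, 160 to 186 and 193 to 235 calls. A replicate block on the number in the titles gave 173, 179 and 217; the numbers did not pair the libraries (correlations of deviations 0.031, 0.014 and 0.019). Loci with 75% of scaled reads in 1 group numbered 167, and leaving out a library gave 93 to 100 loci at 90%. With hosts on either strand, 95 of 256 members shared the leading group of their host. At a floor of 30 reads 58 of 170 did, and leaving out a library gave 89 to 97 of all. The members' share of reads in WT + GFP, KO + GFP and KO + LEENE was 1.04%, 0.52% and 1.30% outside mitochondrially encoded genes, 0.477%, 0.311% and 0.788% without shared exonic bases, and 0.442%, 0.304% and 0.758% without Gm42992. Confinement to 1 group was 11.7% for runs of 10 bases or more and 3.51% for runs of 20 or more, and 23.6% for the other loci when only A runs counted. Leaving out a library gave 5.85% to 7.45% with long runs and 29.5% to 31.7% with shorter ones. With library size only, the log2 fold change between KO + LEENE and WT + GFP turned from -0.18 to 0.49 for Gm42535, from -0.65 to 0.025 for D630023O14Rik and from -0.33 to 0.34 for Gm37144. Among the changes named for the most-read loci, those of Gm42535, D630023O14Rik and Gm37144 lost the call with the direction kept in 18 recomputed values, including those without single libraries of each group for Gm42535. Depth limits loci near 15 reads, where a single read moves the share of a group.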
